A study of Homo sapiens with 25 samples.

Results

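The comparison described here set DND-41 cells kept for 6 days in medium with 12.5% of the usual histidine against DND-41 cells kept for the same time in medium with full (100%) histidine. DND-41 is an established human T-cell acute lymphoblastic leukaemia line, so both groups share one leukaemic genome and differ, as far as the labels say, only in the histidine of the medium. The 6 libraries were chosen by their titles, treatment labels and time labels, 3 at 12.5% and 3 at 100%, out of 25 in the series. The other libraries were taken on day 6 at 50%, 25% and no histidine and on day 9 at 100%, 50%, 25% and 12.5%. They entered the fit to share one estimate of the spread, and those on day 6, together with day 9 at 12.5% and 100%, are also set beside the comparison below.

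Histidine cannot be made by human cells and has to be taken up from the medium. Uncharged tRNA activates the kinase GCN2, which raises translation of the transcription factor ATF4 and with it genes of amino acid synthesis and uptake, while the kinase complex mTORC1, which promotes sterol, nucleotide and ribosome synthesis, is switched off when amino acids are short. Cycling T-cell leukaemia cells draw on both branches, because replication needs nucleotides, histones and membrane lipids.

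Values are the authors' normalized counts, and changes are on the log2(normalized count + 1) scale, tested with limma and Benjamini-Hochberg adjusted over 18799 genes, with a threshold of 0.05. A bare value given for a gene below is such a log2 change. Where the libraries of both groups on day 6 are given one by one, the groups did not overlap, apart from SLC7A5. Nothing in the labels tells whether replicates are separate cultures, so the p-values rest on a spread between libraries that may be technical. The normalized counts of a library added up to 13.6 M, 14.0 M and 14.8 M at 12.5% histidine, against 15.6 M, 15.4 M and 15.3 M at 100%. Depth in reads is not known, and size-factor scaling removes any difference in total RNA per cell. Markers of the line were present in both groups: CD3G, a chain of the T-cell receptor complex, lay between 4145 and 4714 at 12.5% and between 4369 and 4706 at 100%, and the recombinase RAG1 was higher still. Of 15 tested markers of the line 4 fell, where 15.3% of all genes fell, and none rose (2 fell without the keratin-high libraries or without replicate 1 at 12.5% or replicate 1 or 3 at 100%), among them the homeobox factor TLX3, with 7160 ± 807 at 12.5% against 9188 ± 262 at 100% (mean ± SD, n = 3 each; log2 change -0.37), and the receptor chain CD247 (-0.31). PTCRA and CD2 were at or below 31.1 in all 6 libraries, and the defining myeloid, erythroid and B-cell markers MPO, LYZ, GATA1 and PAX5 stayed at or below 4.95. CD79A and EBF1, usually B-cell genes, were expressed in both groups, as was the stromal marker FN1. Of 8 tested stromal markers 3 fell and none rose (1 without the keratin-high libraries), among them PDGFRB, with 846 ± 57.6 at 12.5% against 1113 ± 82.4 at 100% (mean ± SD, n = 3 each; log2 change -0.39). Libraries 1 and 2 at 100% stood apart by the epithelial keratins KRT8, KRT18 and KRT19, which summed to 383 and 1406 there, to 3.44 in the other full-histidine library and to 5.44, 60.3 and 43.8 at 12.5%. None of the 10 tested epithelial markers passed, and the 17 markers found in the table summed to between 52.0 and 112 at 12.5% and to between 51.2 and 1653 at 100%. Where a listed group of genes is counted at 12.5% against 100% on day 6, the count or median without the keratin-high libraries follows it. That setting leaves 1 control. No such value is given for the counts split by promoter motif. With the keratin level as a covariate, which keeps all libraries, 4549 genes passed, against 5072 without it. RNAs without poly(A) tails differed as well, with 5.8S rRNA at 88.2, 79.8 and 74.8 at 12.5%, against 153, 406 and 1181 at 100%.

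At 12.5% histidine 5072 genes passed the threshold, 27.0% of those tested, with 2196 higher (11.7%) and 2876 lower (15.3%). A change of at least 2-fold was seen for 642 of the higher and 548 of the lower genes, and the median over all genes was 0.04. With libraries rescaled to the upper quartile that median was 0.12 and 54.5% of the calls were higher, against 43.3% with the authors' scaling, so small changes are to be read relative to that shift. Without the keratin-high libraries 2464 genes passed, 1143 higher and 1321 lower. Of these, 2343 were also called with all libraries in the same direction, and 2 of the 5072 calls changed sign. The first principal component of the 6 libraries held 39.9% of the variance and separated the groups. Replicate 3 at 12.5% lay nearest to the controls on it, and of the 2876 lower genes it had the highest of the 3 values at 12.5% for 1732. In bulk RNA, fewer cells in a state and less of an RNA per cell cannot be told apart. The share of genes called higher was 6.70% among genes with transcripts of up to 1424 bases and 20.0% among those of 5308 bases or more, while the share called lower was 10.7% and 10.8% in these classes and 20.6% between 1425 and 2432 bases.

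**Figure D1:**
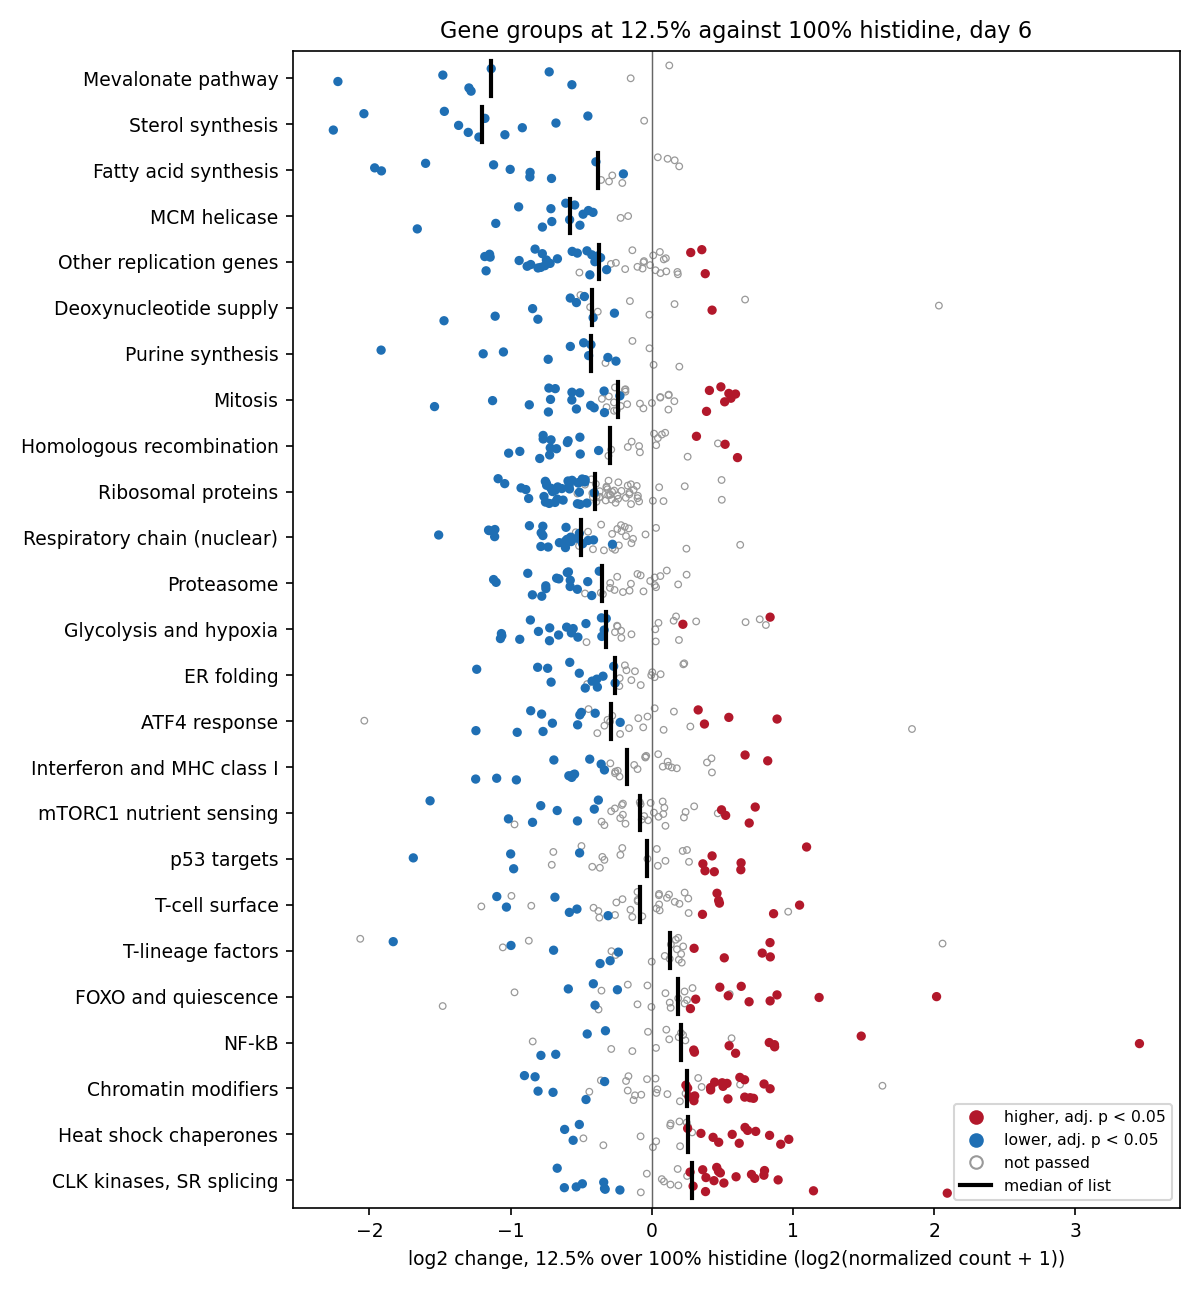
Log2 change of every tested member of 25 gene groups at 12.5% over 100% histidine on day 6. Each point is a gene, red where it was higher and blue where it was lower at adjusted p under 0.05, open grey where it did not pass, and the black bar is the median of the group; sterol genes lie farthest to the left, and splicing, heat shock and chromatin genes lie to the right.

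Most genes of the route from acetyl-CoA to cholesterol fell. SREBF2 encodes the membrane-bound factor that is cut and sent to the nucleus when sterols are low, and MVK the kinase that phosphorylates mevalonate. Their promoters are shown because almost every tested gene of this route was lower, and capitals mark the sterol element TCACCCCAC and the box CCAAT, searched on both strands in 250 bases before and 50 after the start (RefSeq, GRCh38.p14).
SREBF2 promoter, chr22:41832855-41833154, plus strand: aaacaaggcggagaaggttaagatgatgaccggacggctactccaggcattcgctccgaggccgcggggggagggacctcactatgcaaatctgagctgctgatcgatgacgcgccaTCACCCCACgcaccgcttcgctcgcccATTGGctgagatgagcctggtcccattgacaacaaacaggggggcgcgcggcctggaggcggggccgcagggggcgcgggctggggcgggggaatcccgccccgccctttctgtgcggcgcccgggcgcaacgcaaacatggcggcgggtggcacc
MVK promoter, chr12:109573544-109573843, plus strand: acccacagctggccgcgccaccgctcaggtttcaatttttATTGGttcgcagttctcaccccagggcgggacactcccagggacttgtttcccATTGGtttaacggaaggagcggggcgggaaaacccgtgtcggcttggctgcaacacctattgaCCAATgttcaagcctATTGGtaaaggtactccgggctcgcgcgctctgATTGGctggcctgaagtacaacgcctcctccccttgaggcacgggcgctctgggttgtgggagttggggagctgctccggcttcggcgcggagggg
The sterol element was found in 0.430% of 35116 promoters of this length and in that of SREBF2, 133 bases before the start, but in none of 12 promoters listed for mevalonate genes, none of 11 for later sterol genes and 1 of 22 for genes of sterol sensing, uptake and efflux. CCAAT was found in 34.6% of all promoters, at 5 places in that of MVK, and in 7 of the 12 mevalonate and 9 of the 11 later sterol promoters (some genes have several). It was also found in 27 of 34 promoters of endoplasmic reticulum genes, 36 of 47 of mitotic genes and 12 of 17 of helicase genes. A match of letters does not show that a factor binds there.

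Of 9 tested genes of the mevalonate pathway 7 fell and none rose, where 15.3% of all genes fell. The median log2 change was -1.14, against 0.04 over all genes, and the count was also 7 without the keratin-high libraries. MVK (chr12:109573272-109598125) had 34.9, 45.1 and 117 normalized counts at 12.5% histidine, against 320.4, 222 and 276 at 100% (log2 change -2.22 ± 0.35 SE, adjusted p = 5.25e-05). All libraries at 12.5% lay below all those at 100%, and replicate 3 was the highest of the restricted ones. ACAT2, which joins acetyl-CoA units at the entry of the route, had 662, 805 and 961 at 12.5%, against 1999, 1912 and 1919 at 100% (log2 change -1.28 ± 0.14 SE, adjusted p = 3.41e-07). FDPS, which makes farnesyl pyrophosphate, fell by 1.14 on the log2 scale. Of 12 tested genes from squalene to cholesterol 11 fell, with a median of -1.20, and 9 fell without the keratin-high libraries. The demethylase CYP51A1 (chr7:92112153-92134803) had 109, 49.6 and 114 at 12.5%, against 452, 413 and 368 at 100% (log2 change -2.25 ± 0.22 SE, adjusted p = 1.37e-07). MSMO1, the oxidase that removes methyl groups from the sterol ring, had 231, 183 and 285 at 12.5%, against 610.1, 553 and 617 at 100% (log2 change -1.37 ± 0.14 SE, adjusted p = 1.36e-07). For each of these genes the levels at 12.5% lay under the lowest control.

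Of 20 tested genes of sterol sensing, uptake and efflux 9 fell and 2 rose (7 and 1 without the keratin-high libraries). The exporter ABCG1, which the oxysterol receptors induce, was lower, with 1085, 1213 and 1271 at 12.5%, against 1955, 1786 and 2055 at 100% (log2 change -0.70 ± 0.11 SE, adjusted p = 5.59e-05). The factor genes themselves were lower too: SREBF1 had 2493, 2681 and 2482 at 12.5%, against 5906, 5221 and 4879.6 at 100% (log2 change -1.06 ± 0.13 SE, adjusted p = 1.64e-06), and SREBF2 fell by 0.51. Of 18 fatty acid genes 10 fell and none rose (7 and 0 without the keratin-high libraries). Among them the citrate carrier SLC25A1 had 857, 984 and 1113 at 12.5%, against 1989, 2236 and 2172 at 100% (log2 change -1.12 ± 0.12 SE, adjusted p = 4.89e-07), while FASN, the cytosolic synthase, fell by 0.86.

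**Figure D2:**
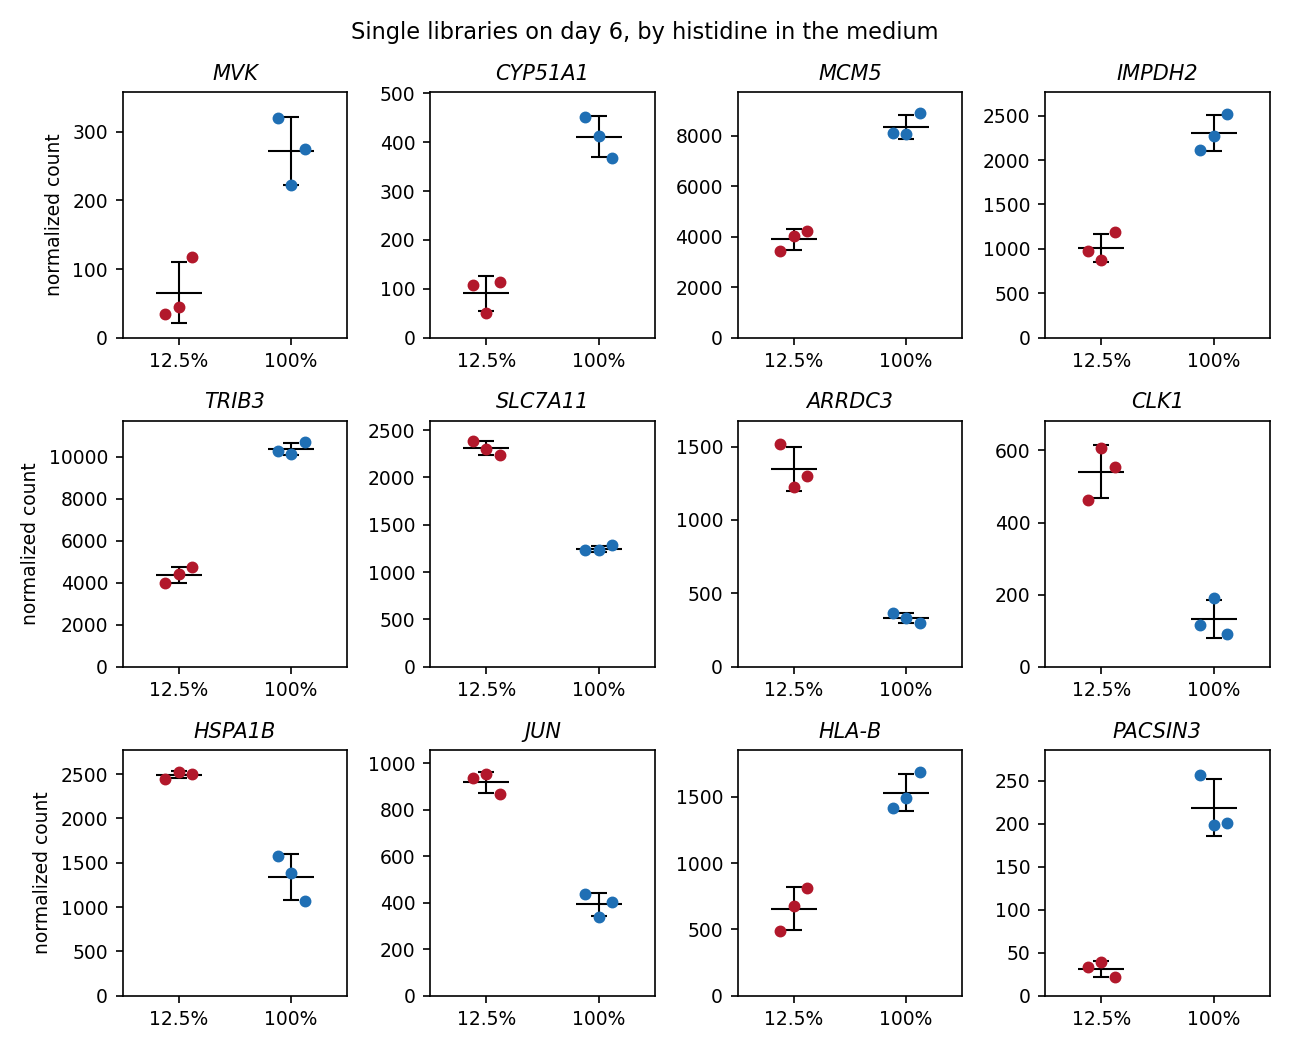
Normalized counts of 12 genes in the 3 libraries at 12.5% (red, left) and the 3 at 100% histidine (blue, right) on day 6, with the mean and SD as black bars. In each panel the groups do not overlap, and MVK shows the widest spread relative to its mean at 12.5%.

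Genes of DNA replication fell at almost every step from origin licensing to strand joining. The MCM2 to MCM7 ring unwinds DNA, and CDC45 and the GINS subunits switch it on. Of 15 tested genes of this helicase 13 fell and none rose, with a median of -0.58, and 13 fell without the keratin-high libraries. MCM5 had 3431, 4028 and 4209 normalized counts at 12.5%, against 8087, 8052 and 8882 at 100% (log2 change -1.10 ± 0.11 SE, adjusted p = 1.1e-07). MCM3 had 6347, 6970.2 and 6907 at 12.5%, against 11808, 11669 and 11096 at 100% (log2 change -0.77 ± 0.08 SE, adjusted p = 1.1e-07). The subunits form one ring of equal parts, but their falls ranged from 0.51 for MCM4 to 1.66 for MCM2, and the groups did not overlap for any of the 6 ring subunits, as for 41.6% of all genes. GINS2 had 345, 399.7 and 532 at 12.5%, against 823, 731 and 869 at 100% (log2 change -0.94 ± 0.17 SE, adjusted p = 0.000282).

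Promoters of MCM2 and MCM6 are shown for the letters of E2F sites, the factors that time S-phase genes. MCM6 was picked for its promoter, after its values were seen. Capitals mark the words TTTCCCGC, TTTGGCGC, TTTCGCGC and TTTGGCGG on either strand, some of which overlap.
MCM2 promoter, chr3:127598161-127598460, plus strand: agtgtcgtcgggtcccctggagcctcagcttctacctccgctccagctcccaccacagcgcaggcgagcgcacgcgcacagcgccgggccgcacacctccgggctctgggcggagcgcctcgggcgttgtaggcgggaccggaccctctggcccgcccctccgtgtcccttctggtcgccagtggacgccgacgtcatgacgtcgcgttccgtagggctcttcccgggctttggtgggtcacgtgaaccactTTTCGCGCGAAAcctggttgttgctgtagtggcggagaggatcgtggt
MCM6 promoter, chr2:135876394-135876693, minus strand: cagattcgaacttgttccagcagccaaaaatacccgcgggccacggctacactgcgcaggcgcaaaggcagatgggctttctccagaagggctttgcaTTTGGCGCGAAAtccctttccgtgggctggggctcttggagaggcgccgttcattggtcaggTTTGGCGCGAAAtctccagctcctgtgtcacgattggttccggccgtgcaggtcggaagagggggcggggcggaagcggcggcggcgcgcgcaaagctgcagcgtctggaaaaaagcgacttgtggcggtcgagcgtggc
One of these words was found in 3.35% of all promoters, in 11 of 17 promoters of helicase genes and in 23 of 54 of other replication genes. Of 32 tested replication and helicase genes with such a word 21 fell and 3 rose, and of 21 without one 10 fell and none rose, with medians of -0.44 in both sets; the other tested genes of these lists had no promoter in the table. MCM6 had 5112 ± 519 at 12.5%, against 8326 ± 379.9 at 100% (mean ± SD, n = 3 each; log2 change -0.71).

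Of 46 other replication genes 24 fell and 3 rose (17 and 2 without the keratin-high libraries, and 1 higher without replicate 2 at 12.5% or replicate 3 at 100%). CDT1, which loads the helicase in G1, had 2682, 3365 and 3633 at 12.5%, against 7174, 7140.0 and 7344 at 100% (log2 change -1.17 ± 0.12 SE, adjusted p = 2.52e-07). RFC2, part of the clamp loader, had 602, 662 and 725 at 12.5%, against 1427, 1205 and 1187 at 100% (log2 change -0.94 ± 0.11 SE, adjusted p = 1.46e-06), and RPA3, which coats single strands, fell by 1.14. The 3 that rose were ORC3 (0.38), the checkpoint adaptor CLSPN (0.28) and UHRF1 (0.35), named after their values were seen. UHRF1 reads hemimethylated DNA for the methyltransferase DNMT1, and DNMT1 itself had 3681, 3813 and 3798 at 12.5%, against 6882, 7191 and 6004 at 100% (log2 change -0.83 ± 0.11 SE, adjusted p = 1.12e-05), so these partners moved in opposite directions.

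Transcripts of enzymes that make nucleotides were lower as well. Of 18 genes of thymidylate and deoxynucleotide synthesis 9 fell and 1 rose (6 and 0 without the keratin-high libraries). The one that rose was RRM2B (0.43), a call lost under 10 of 21 alternatives. The salvage kinase TK1 had 1009, 1442 and 1855 at 12.5%, against 2848, 2906 and 3275 at 100% (log2 change -1.11 ± 0.16 SE, adjusted p = 1.61e-05), and DUT, which keeps uracil out of DNA, fell by 0.84. Of 15 purine genes 10 fell and none rose (4 without the keratin-high libraries, 5 with 5.8S rRNA as a covariate). Apart from the weakly expressed ADSS1 (-1.92), the largest of these falls were at the branch to guanine nucleotides. IMPDH2, the rate-limiting enzyme of that branch, had 980.2, 872 and 1184 at 12.5%, against 2116, 2275 and 2519.7 at 100% (log2 change -1.19 ± 0.13 SE, adjusted p = 8.13e-07). GMPS, which completes it, had 1430.2, 1539.8 and 1763 at 12.5%, against 3251, 3269 and 3248 at 100% (log2 change -1.05 ± 0.09 SE, adjusted p = 2.97e-08). The groups did not overlap for either enzyme, and both calls held under each of 21 alternatives. MTHFD1, which interconverts folate one-carbon units, fell by 0.97, among 5 of 16 serine and folate genes that fell (2 without the keratin-high libraries, 3 without replicate 1 at 100%).

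Of 30 genes of homologous recombination 14 fell and 3 rose, where 15.3% of all genes fell and 11.7% rose. Their median log2 change was -0.30, and -0.23 without the keratin-high libraries. RAD54L, a motor protein of strand exchange, had 914, 1092 and 1017 at 12.5%, against 2007, 2129.9 and 1956 at 100% (log2 change -1.01 ± 0.07 SE, adjusted p = 2.48e-09). BRCA1 had 1032, 1227 and 1038 at 12.5%, against 2078, 1884 and 1748 at 100% (log2 change -0.79 ± 0.11 SE, adjusted p = 1.17e-05). The genes that rose were BRCA2, with 1061 ± 67.2 at 12.5% against 699 ± 92.4 at 100% (mean ± SD, n = 3 each; log2 change 0.61), RAD50 (0.52) and FANCI (0.32), named after their values were seen.

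Cell cycle regulators did not move as one. Among 8 cyclin and CDK genes tested 4 fell and 1 rose, and the lower count was 0 without the keratin-high libraries and 1 without replicate 1 at 12.5%. The D-type cyclin that the line expresses most, CCND3, had 17082, 20812 and 22409 at 12.5%, against 28119.7, 26452 and 27642 at 100% (log2 change -0.46 ± 0.10 SE, adjusted p = 0.00119), and its call was lost without the keratin-high libraries and with quantile normalization. Of 7 CDK inhibitor genes 3 fell and none rose (1 without the keratin-high libraries). CDKN1A, the p21 inhibitor, had 274, 275 and 398 at 12.5%, against 645, 571 and 627 at 100% (log2 change -0.98 ± 0.13 SE, adjusted p = 9.81e-06), and CDKN1B, the p27 inhibitor, had 1959.7, 2520.1 and 2535 at 12.5%, against 3394, 2909 and 2998 at 100% (log2 change -0.41 ± 0.09 SE, adjusted p = 0.00159, not called without the keratin-high libraries). Of 18 E2F and RB family genes 6 fell and 1 rose (2 and 0 without the keratin-high libraries, and 3 lower without replicate 2 at 100%). E2F1 fell by 0.73 and MYBL2 by 0.67.

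Of 44 mitotic genes 16 fell and 7 rose against full histidine (10 and 5 without the keratin-high libraries), with a median of -0.24. Kinetochore and passenger complex genes were among the lower ones: SPC24 had 335, 325 and 369.9 at 12.5%, against 723, 746 and 782 at 100% (log2 change -1.13 ± 0.14 SE, adjusted p = 2.59e-06), and CDCA8 fell by 0.87. NDC80, which sits in one complex with SPC24, rose by 0.52, and was named after its value was seen. Large proteins of the mitotic spindle and chromosome surface were among the higher ones. With the trend on transcript length removed, an alternative chosen after seeing the data, 6 of the 44 were higher and 18 lower. MKI67 had 29879, 32096 and 27390.3 at 12.5%, against 22925, 24195 and 20249.7 at 100% (log2 change 0.41 ± 0.15 SE, adjusted p = 0.0395), with its call lost under 9 of 21 alternatives, among them both covariates and leaving out the keratin-high libraries. CENPF rose by 0.56 and ASPM by 0.49.

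The mitotic genes also differed from both neighbouring levels, of which 25% has 2 libraries and no histidine 3, one of these with a day 6 title and a day 9 time label. Against 25% histidine, where 17.8% of all genes passed, 7.08% higher and 10.7% lower, 40 of the 44 were lower at 12.5%, none was higher and the median was -0.69. Against no histidine, where 15.3% passed, 8.26% higher and 7.00% lower, 43 of 44 were higher at 12.5%, none was lower and the median was 1.07. These comparisons share the 12.5% libraries. Leaving out one library at a time, the doubly labelled one included, kept the lower count against 25% between 36 and 41 and the higher count against no histidine at 43 or 44, and with the compared groups fitted alone the counts were 27 and 39. MKI67 had 11239.6, 8219 and 7828 without histidine, 29879, 32096 and 27390.3 at 12.5%, 28487 and 28738 at 25%, 28876, 22226 and 32818 at 50% and 22925, 24195 and 20249.7 at 100%. Its level at 12.5% was 1.73 above that without histidine on the log2 scale (adjusted p = 1.09e-08), while it differed by 0.06 from 25% (adjusted p = 0.861). AURKB, the passenger complex kinase, had 563, 743 and 787 without histidine, 1004, 1352 and 1567 at 12.5%, 2126 and 2102 at 25%, 3724, 4530.5 and 3327 at 50% and 3772, 3679.8 and 3761 at 100%. Its steps from 12.5% to each neighbour passed (-0.72 against 25%, adjusted p = 0.0016; 0.90 against none, adjusted p = 3.58e-05).

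**Figure D3:**
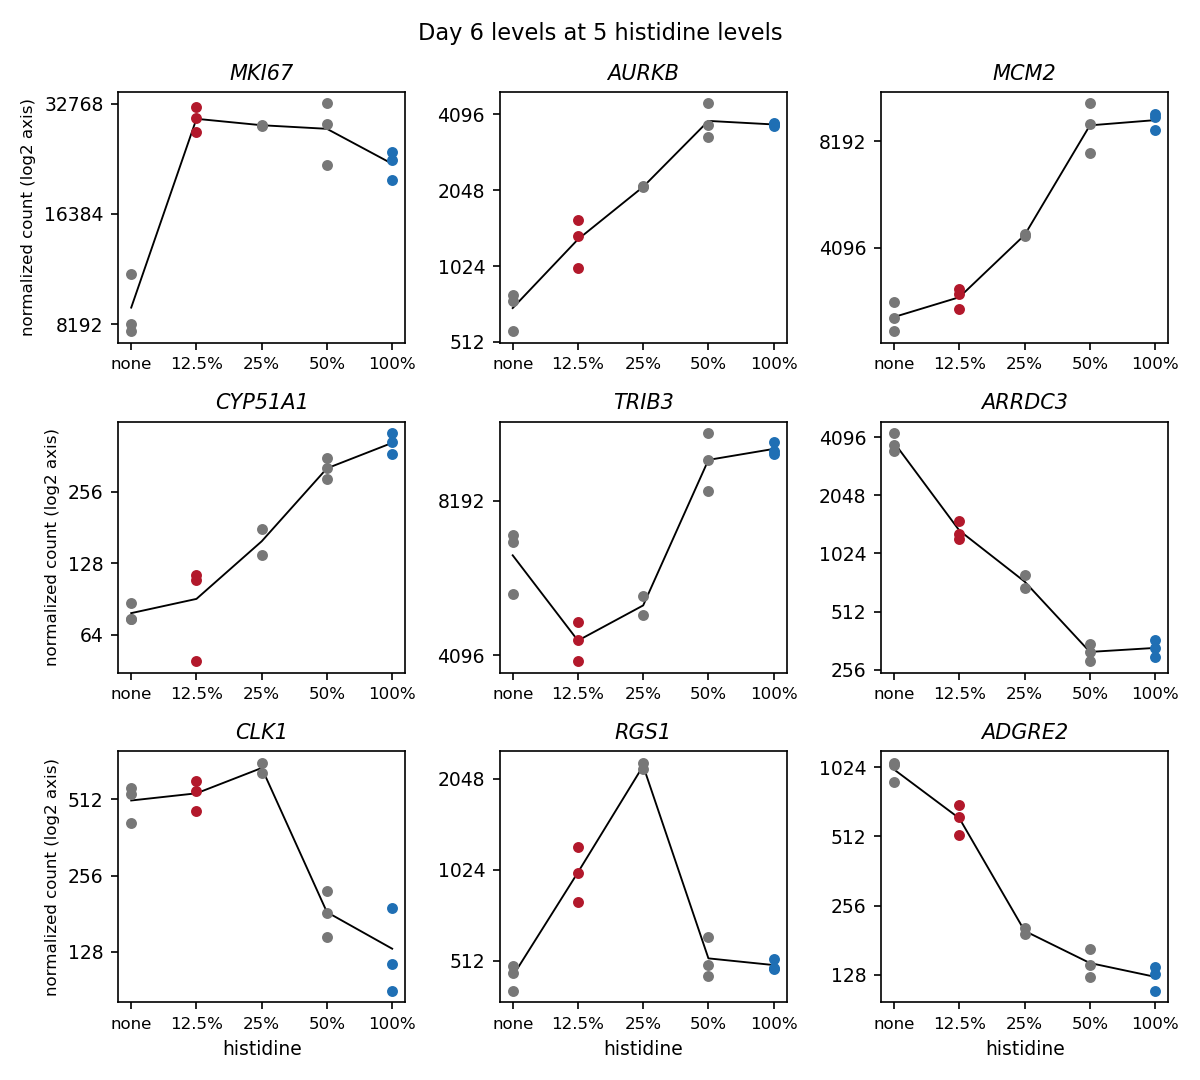
Normalized counts on day 6 (log2 axis) of 9 genes without histidine and at 12.5% (red), 25%, 50% and 100% (blue), with a point per library and a line through group means. MKI67 is lowest without histidine, AURKB and MCM2 lie lower at 25% and below than at 50% and 100%, TRIB3 has its lowest mean at 12.5%, and RGS1 its highest at 25%.

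Genes of the amino acid response were more often lower than higher, where 15.3% of all genes fell and 11.7% rose. Of 32 tested genes of the ATF4 programme 11 fell and 4 rose, with a median of -0.29 (6 and 3 without the keratin-high libraries, 7 lower without replicate 1 at 12.5%, and 2 higher without replicate 2 at 12.5% or replicate 3 at 100%). The pseudokinase TRIB3, a classic target and feedback inhibitor of ATF4, had 3986, 4387 and 4745 normalized counts at 12.5%, against 10247, 10111 and 10669 at 100% (log2 change -1.25 ± 0.11 SE, adjusted p = 2.46e-08). ATF5 had 18543, 18202 and 18927 at 12.5%, against 35563, 37928 and 34348 at 100% (log2 change -0.95 ± 0.07 SE, adjusted p = 6.38e-09). DDIT3, which encodes CHOP, had 405, 367 and 347 at 12.5%, against 642, 667 and 599 at 100% (log2 change -0.77 ± 0.11 SE, adjusted p = 2.33e-05). All 3 were lower in every restricted library than in any control. EIF4EBP1, the translational repressor 4E-BP1, fell by 0.86 and CEBPB by 0.70. In contrast the cystine carrier SLC7A11 had 2386, 2305 and 2239.5 at 12.5%, against 1230.3, 1229 and 1285 at 100% (log2 change 0.89 ± 0.12 SE, adjusted p = 7.18e-06). SLC38A2, a neutral amino acid carrier, rose by 0.55. ASNS, the asparagine synthetase that usually tracks ATF4, was low throughout, with 51.8, 86.8 and 74.8 at 12.5%, against 15.6, 45 and 8.92 at 100% (log2 change 1.84 ± 0.69 SE, adjusted p = 0.051), and did not pass although its groups did not overlap. The ATF4 transcript, which is controlled mostly at translation, had 15134, 14936 and 17299.8 at 12.5%, against 18313, 18455 and 18432 at 100% (log2 change -0.22 ± 0.09 SE, adjusted p = 0.0649), and did not pass.

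Genes that handle histidine itself changed little, with 1 of 25 higher and 1 lower (1 and 0 without the keratin-high libraries). The cytosolic histidyl-tRNA synthetase HARS1 had 843, 825 and 915 at 12.5%, against 1128, 1059 and 949 at 100% (log2 change -0.28 ± 0.09 SE, adjusted p = 0.0232), a fall that was lost under 8 of 21 alternatives, both rescalings of the libraries and leaving out the keratin-high libraries among them. The mitochondrial HARS2 changed by -0.07 and did not pass (adjusted p = 0.726). For the carrier of histidine and other large amino acids, the light chain SLC7A5 had 21662, 25372 and 25606 at 12.5%, against 22984, 23131 and 23121 at 100% (log2 change 0.07 ± 0.12 SE, adjusted p = 0.742), and did not pass. Its heavy chain SLC3A2 had 12656, 17476 and 19766 at 12.5%, against 11711, 9980.3 and 10262 at 100% (log2 change 0.62 ± 0.16 SE, adjusted p = 0.00438), a rise lost with 5.8S rRNA as a covariate. Among the tRNA synthetases of the cytosol 8 of 20 were lower and 2 higher (6 and 2 without the keratin-high libraries, and 1 higher without any single library of the groups but replicate 2 at 100%). AARS1, the alanyl enzyme, fell by 0.77, and FARSB, a phenylalanyl subunit, by 0.69.

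In the stress kinase branch EIF2AK2, the kinase PKR, had 1749, 1367 and 1369.9 at 12.5%, against 814, 982 and 812 at 100% (log2 change 0.78 ± 0.17 SE, adjusted p = 0.00108). The related kinase genes EIF2AK1, EIF2AK3 and EIF2AK4, the last of which encodes GCN2, did not pass, nor did GCN1. Among 38 genes of mTORC1 nutrient sensing 4 rose and 8 fell, but the lower count was 2 without the keratin-high libraries and 4 or 5 without replicate 1 or 2 of either group, and the median changed sign with upper-quartile rescaling. The higher count was 2 without replicate 1 or 2 at 100%. With all libraries 31.6% of these sensing genes were called, against 27.0% of all genes. MIOS, of the activating GATOR2 complex, had 138, 117 and 132 at 12.5%, against 270.0, 259.7 and 253 at 100% (log2 change -1.01 ± 0.13 SE, adjusted p = 4.79e-06). TSC2, the brake on the pathway, fell by 0.79, and the arginine sensor relative CASTOR2 had 1903, 1879 and 1773 at 12.5%, against 1117, 1169 and 1153 at 100% (log2 change 0.69 ± 0.12 SE, adjusted p = 0.000215). FNIP1, a folliculin partner, rose by 0.73.

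Chaperones of the cytosol and of the endoplasmic reticulum moved in opposite directions. In the heat shock list 12 of 27 genes were higher and 3 lower (10 and 3 without the keratin-high libraries, 5 and 3 with 5.8S rRNA as a covariate), and of 27 genes of endoplasmic reticulum folding 13 fell and none rose (6 without the keratin-high libraries). HSPA1B, an inducible HSP70, had 2448, 2528 and 2506 normalized counts at 12.5%, against 1575, 1382 and 1065 at 100% (log2 change 0.91 ± 0.21 SE, adjusted p = 0.00224, not called with the 5.8S covariate). It can share reads with its near copy HSPA1A, which did not pass. HSPB1, HSPE1 and DNAJB1 did not pass either. DNAJB6, an HSP70 partner, had 4047, 4277 and 5001 at 12.5%, against 2943, 2560.0 and 2798 at 100% (log2 change 0.68 ± 0.11 SE, adjusted p = 8.19e-05). The 3 that fell were HSPA9 (-0.56), BAG3 (-0.62) and FKBP4 (-0.51), named after their values were seen. HSPA9 is the HSP70 of mitochondria. SDF2L1, a partner of the reticulum HSP70, had 328, 391 and 423 at 12.5%, against 988, 815 and 889 at 100% (log2 change -1.24 ± 0.14 SE, adjusted p = 9.11e-07), and MANF fell by 0.81.

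The promoter of HSPA8, the constitutive HSP70, is shown for its heat shock elements, and was picked after its values were seen. Capitals mark alternating GAA, TTC and GAA triplets parted by NN, on either strand.
HSPA8 promoter, chr11:123062087-123062386, minus strand: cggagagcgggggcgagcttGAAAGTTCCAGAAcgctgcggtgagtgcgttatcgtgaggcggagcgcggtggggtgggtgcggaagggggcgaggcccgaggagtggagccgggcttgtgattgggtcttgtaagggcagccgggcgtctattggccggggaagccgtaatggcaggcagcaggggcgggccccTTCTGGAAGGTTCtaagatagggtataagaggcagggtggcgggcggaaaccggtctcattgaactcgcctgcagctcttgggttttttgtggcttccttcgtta
That pattern was found in 0.490% of all promoters and in 7 of 38 promoters of heat shock genes. Of the 7 tested heat shock genes that carry it 6 rose and none fell, and of 18 without it 6 rose and 2 fell; the difference was not tested, and 2 of the 27 had no promoter in the table. HSPA8 had 22483 ± 3682 at 12.5%, against 14539 ± 1172 at 100% (mean ± SD, n = 3 each; log2 change 0.62, adjusted p = 0.00119).

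Genes of energy supply and of protein turnover were lower in large numbers and by moderate sizes. Of 48 nuclear genes of the respiratory chain 26 fell and none rose, with a median of -0.50 (13 without the keratin-high libraries, 15 without replicate 1 at 12.5%). COX7C, of complex IV, had 863, 835 and 1381 at 12.5%, against 1949, 2324 and 2434 at 100% (log2 change -1.16 ± 0.17 SE, adjusted p = 3.15e-05). UQCRH, of complex III, had 635, 681 and 1029 at 12.5%, against 1655, 1524 and 1789 at 100% (log2 change -1.11 ± 0.18 SE, adjusted p = 5.75e-05). Of 13 genes of the mitochondrial genome 2 fell (0 without the keratin-high libraries, 1 without replicate 2 of either group), and their median changed sign with quantile normalization. In glycolysis and the hypoxia response 18 of 37 genes were lower and 2 higher (13 and 1 without the keratin-high libraries, and 11 lower with 5.8S rRNA as a covariate). The liver-type phosphofructokinase PFKL had 2740.1, 2631 and 2726 at 12.5%, against 5845, 5566 and 5609 at 100% (log2 change -1.07 ± 0.08 SE, adjusted p = 3.8e-09), and TPI1 fell by 1.06. In the pentose phosphate branch TKT fell by 0.99. Of 38 proteasome genes 17 fell and none rose (11 without the keratin-high libraries), among them PSMD2, a scaffold of the cap, with 2337, 2377 and 2664 at 12.5%, against 5428, 5368 and 5217 at 100% (log2 change -1.12 ± 0.10 SE, adjusted p = 2.86e-08), and the ATPase subunit PSMC4, which fell by 1.10.

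Of 79 ribosomal protein genes 33 fell and none rose, with a median of -0.40. This count depended on single libraries: it was 14, 19 and 56 without replicate 1, 2 and 3 at 12.5%, 20 without replicate 3 at 100% and 13 without the keratin-high libraries. RPS14 had 2366, 2608 and 4248 at 12.5%, against 5536, 6377 and 6475 at 100% (log2 change -1.04 ± 0.22 SE, adjusted p = 0.000962), with replicate 3 well above the other restricted libraries. Many of these genes have near-identical pseudogenes that can share their reads. Of 40 ribosome biogenesis genes 12 fell and 5 rose (3 and 3 without the keratin-high libraries, 6 lower without replicate 1 at 100%, 7 lower with upper-quartile rescaling, and 3 higher without replicate 3 at 100%). FBL, the methylase of rRNA, had 1779.5, 1927 and 2304 at 12.5%, against 4009, 3610.2 and 3524 at 100% (log2 change -0.90 ± 0.14 SE, adjusted p = 5.71e-05). Of 45 translation factors 6 rose and 12 fell (5 and 2 without the keratin-high libraries, and 6 lower without replicate 1 at 12.5%). EIF5, which sets start codon choice, had 3495, 2944 and 2972 at 12.5%, against 1919.7, 1801 and 1720.2 at 100% (log2 change 0.79 ± 0.08 SE, adjusted p = 3.13e-07), and PDCD4, an inhibitor of the helicase EIF4A, had 1847, 1986 and 2124 at 12.5%, against 1337, 1114 and 1079 at 100% (log2 change 0.76 ± 0.09 SE, adjusted p = 1.09e-06).

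Regulators of splicing were often higher, where 11.7% of all genes rose and 15.3% fell. Of 34 genes of CLK kinases and SR splicing factors 18 rose and 8 fell, with a median of 0.28 (16 and 2 without the keratin-high libraries, 10 higher with 5.8S rRNA as a covariate, and 4 lower without replicate 1 at 12.5%). CLK1 (chr2:200853009-200864658), a kinase that phosphorylates SR proteins, had 462, 607 and 555 normalized counts at 12.5%, against 115, 191 and 89.8 at 100% (log2 change 2.09 ± 0.20 SE, adjusted p = 1.19e-07). TRA2A had 1897, 2083 and 2195 at 12.5%, against 1102, 1141 and 1071 at 100% (log2 change 0.90 ± 0.10 SE, adjusted p = 3.83e-07), and RBM39 rose by 0.80. Scaffold proteins of nuclear speckles were higher, SON by 0.73 and SRRM2 by 0.60, while the small SR proteins SRSF2 (-0.62) and SRSF3 (-0.53) were lower. CLK1 was at 569.8, 539 and 413 without histidine and at 649 and 714 at 25%, and 12.5% passed neither against none (adjusted p = 0.815) nor against 25% (adjusted p = 0.332).

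Of 44 chromatin modifier genes 19 rose and 6 fell (7 and 3 without the keratin-high libraries, and 12 higher without replicate 2 at 12.5% or replicate 3 at 100%). Those that rose included histone methyltransferases (KMT2A, 0.72; KMT2D, 0.70), demethylases and acetyltransferases (EP300, 0.50). The list has long transcripts, with a median length of 6564 bases. SETD2, which writes H3K36 trimethylation, had 3041 ± 381 at 12.5%, against 1919 ± 123 at 100% (mean ± SD, n = 3 each; log2 change 0.66, adjusted p = 0.000204). KDM6B, an H3K27 demethylase, had 1192, 1116 and 1032 at 12.5%, against 589.7, 699.8 and 635 at 100% (log2 change 0.80 ± 0.15 SE, adjusted p = 0.000249). With the trend on transcript length removed, an alternative chosen after seeing the data, 17 were higher and 9 lower. The methyltransferase SETDB1 fell by 0.81 and DNMT3B by 0.90.

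Genes linked to quiescence and to low growth signalling were more often higher. Of 31 FOXO and quiescence genes 10 rose and 4 fell (6 and 0 without the keratin-high libraries, 5 higher with 5.8S rRNA as a covariate). The arrestin-domain gene ARRDC3 (chr5:91368631-91383317), which helps remove receptors and carriers from the membrane, had 1515, 1223 and 1300.0 at 12.5%, against 364, 333 and 297 at 100% (log2 change 2.02 ± 0.12 SE, adjusted p = 9.16e-11). Its paralog TXNIP, which inhibits thioredoxin and glucose uptake, had 4787, 4785 and 5376 at 12.5%, against 2168, 2166 and 2227 at 100% (log2 change 1.19 ± 0.11 SE, adjusted p = 1.01e-07). Both were higher in every restricted library than in any control. BTG1, an antiproliferative gene of lymphocytes, had 2455, 2711 and 3089 at 12.5%, against 1618, 1519 and 1462 at 100% (log2 change 0.84 ± 0.13 SE, adjusted p = 4.63e-05). ARRDC3 also had 4312, 3484 and 3741 without histidine and 676 and 788 at 25%, and 12.5% differed from each neighbour (0.88 against 25%, adjusted p = 0.000126; -1.51 against none, adjusted p = 4.96e-09). In the MYC network MYC had 13216, 13569.7 and 13257 at 12.5%, against 17231, 14638 and 15447 at 100% (log2 change -0.24 ± 0.08 SE, adjusted p = 0.0272), a call lost under 11 of 21 alternatives, while its antagonist MXD1 had 994, 870.2 and 883 at 12.5%, against 538, 533 and 502 at 100% (log2 change 0.80 ± 0.10 SE, adjusted p = 5.15e-06).

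Calls among genes of T-cell identity went both ways. They made up 39.3% of the tested lineage factors and 30.0% of the surface and receptor genes, where 27.0% of all genes passed. Of 28 lineage factors 5 rose and 6 fell (5 and 2 without the keratin-high libraries, and 8 or 10 higher with the 2 rescalings). GATA3 had 2431, 2436 and 2519.8 at 12.5%, against 1377, 1384 and 1364 at 100% (log2 change 0.84 ± 0.09 SE, adjusted p = 2.56e-07), and SATB1, a chromatin organiser of thymocytes, had 2795, 2688 and 2698 at 12.5%, against 1469.8, 1603 and 1505 at 100% (log2 change 0.84 ± 0.13 SE, adjusted p = 6.03e-05). ID3, an inhibitor of E proteins, fell by 1.00. Of 40 surface and receptor genes 6 rose and 6 fell (2 and 4 without the keratin-high libraries), the higher count was 2 or 3 without any one of 5 of the 6 libraries, and the median changed sign with both rescalings. The early T-cell antigen CD7 had 4220.1, 4659.5 and 5084 at 12.5%, against 9642, 8949.5 and 9846 at 100% (log2 change -1.03 ± 0.11 SE, adjusted p = 7.16e-07), and DNTT, which adds bases at receptor joints, had 205, 159.7 and 277 at 12.5%, against 446, 426 and 472 at 100% (log2 change -1.10 ± 0.18 SE, adjusted p = 7.7e-05). The costimulatory receptor CD28 had 497, 493 and 664 at 12.5%, against 274, 306 and 219 at 100% (log2 change 1.05 ± 0.20 SE, adjusted p = 0.000433, not called with the 5.8S covariate). NOTCH1, the main oncogene of this leukaemia, changed by -0.08 and did not pass (adjusted p = 0.584).

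Of 32 interferon and class I presentation genes 11 fell and 2 rose (6 and 2 without the keratin-high libraries). HLA-B had 485, 677 and 809 normalized counts at 12.5%, against 1415, 1495 and 1685 at 100% (log2 change -1.25 ± 0.16 SE, adjusted p = 3.37e-06). HLA-C had 2281, 2635 and 3234 at 12.5%, against 5717, 5429 and 6150.2 at 100% (log2 change -1.10 ± 0.13 SE, adjusted p = 1.25e-06). These class I genes share sequence, so reads may be divided between them, but for both the restricted libraries lay below all controls. Of 25 NF-kB genes 9 rose and 4 fell (5 and 3 without the keratin-high libraries, and 2 lower without replicate 1 at 12.5% or replicate 3 at 100%). The survival gene IER3 had 625, 525 and 551 at 12.5%, against 222, 175 and 211 at 100% (log2 change 1.48 ± 0.20 SE, adjusted p = 1.04e-05), and the cytokine LTB had 5562, 5917 and 6649 at 12.5%, against 3715, 3273 and 3186 at 100% (log2 change 0.83 ± 0.14 SE, adjusted p = 9.14e-05). The factor gene NFKB1 was lower, with 764, 909 and 964 at 12.5%, against 1527, 1478 and 1519 at 100% (log2 change -0.78 ± 0.11 SE, adjusted p = 1.11e-05). JUN, an immediate-early factor, had 935, 951 and 865 at 12.5%, against 436, 339 and 402 at 100% (log2 change 1.23 ± 0.15 SE, adjusted p = 2.29e-06). Of 27 p53 genes 7 rose and 4 fell (3 and 3 without the keratin-high libraries, and 4 higher without replicate 2 at 12.5% or replicate 1 at 100%), and their median of -0.03 changed sign with both rescalings. TIGAR, which lowers glycolytic flux, had 405, 353 and 370.3 at 12.5%, against 198, 167 and 162 at 100% (log2 change 1.10 ± 0.16 SE, adjusted p = 1.61e-05), while DDB2, a sensor of UV damage, had 323, 371 and 343 at 12.5%, against 648, 635 and 801 at 100%, and fell by 1.00 on the log2 scale (adjusted p = 1.52e-06). Among 15 BCL2 family genes the proapoptotic BCL2L11, which encodes BIM, rose by 0.53 and BID fell by 0.87.

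Several of the largest single changes belonged to none of these groups. WNK4 (chr17:42780610-42797066), a kinase that controls ion carriers, had 244, 245 and 176 at 12.5%, against 26.9, 42.9 and 55 at 100% (log2 change 2.43 ± 0.25 SE, adjusted p = 2.17e-07). The adhesion receptor ADGRE2 (chr19:14724171-14778560) had 703, 621 and 518 at 12.5%, against 109, 138 and 129 at 100% (log2 change 2.28 ± 0.22 SE, adjusted p = 1.19e-07). Both calls held under each of 21 alternatives. The sodium channel SCN3A had 529, 487 and 415 at 12.5%, against 183, 127 and 133 at 100% (log2 change 1.70 ± 0.20 SE, adjusted p = 1.3e-06), while SLC27A3, a carrier of long-chain fatty acids, had 252, 263 and 229.7 at 12.5%, against 86.6, 108 and 42.5 at 100% (log2 change 1.74 ± 0.29 SE, adjusted p = 8.38e-05). The long noncoding RNA LINC00662 rose by 2.08 and the smoothelin-like SMTNL1 by 1.82.

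Among the deepest falls PACSIN3 (chr11:47177522-47186434), a membrane-bending protein of endocytosis, had 33.5, 39.5 and 21.2 at 12.5%, against 257, 198 and 201 at 100% (log2 change -2.80 ± 0.24 SE, adjusted p = 2.44e-08). IMPA2, which frees inositol from its phosphate, had 49.2, 29.9 and 53.2 at 12.5%, against 298, 183 and 255 at 100% (log2 change -2.46 ± 0.25 SE, adjusted p = 2.19e-07). RMI2, of the complex that dissolves recombination intermediates, fell by 2.01. COL6A1, a collagen chain on the stromal marker list, had 65, 39.4 and 45.5 at 12.5%, against 197, 269 and 176 at 100% (log2 change -2.09 ± 0.30 SE, adjusted p = 1.84e-05). COL6A2, its partner chain, was at 0 in the 3 restricted libraries and at up to 40.5 at 100%, and COL1A1 was at most 5.63 at 12.5% and 26.6 at 100%.

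Replication-dependent histone genes make mRNAs without poly(A) tails. Against 100% histidine on day 6 they were more often lower than higher, with 22 of 49 lower, 4 higher and 23 not passed. The count was 25 lower and 1 higher without the keratin-high libraries. They moved with the other RNAs without such tails, of which 10 of 15 were lower and none higher, with a median of -1.76 (7 lower without the keratin-high libraries, 4 without replicate 3 at 100%, and 0 lower and 1 higher with 5.8S rRNA, itself such an RNA, as a covariate). The deposited table lists 5.8S rRNA under a pair of names with identical values, and both are in this count. With 5.8S rRNA as a covariate 5 histone genes were lower and 8 higher. The only control left without the keratin-high libraries, replicate 3 at 100%, had the most 5.8S rRNA, 1181 against 153 and 406. That setting thus compares with the control richest in this RNA. H1-3 had 16.2, 11.3 and 7.36 at 12.5%, against 51.1, 86.6 and 219 at 100% (log2 change -3.05 ± 0.44 SE, adjusted p = 1.73e-05). H3C6 went the other way, with 215, 123 and 147 at 12.5%, against 24.6, 24.2 and 72.4 at 100% (log2 change 2.13 ± 0.35 SE, adjusted p = 8.55e-05). The full-histidine libraries spread widely for H1-3, as they did for 5.8S rRNA. Values of the listed histone genes summed to between 2740 and 3032 at 12.5%, and to between 2849 and 13892 at 100%. Against 50% histidine 5 histone genes were higher at 12.5% and 4 lower. On day 9, against 100%, 7 were higher and 2 lower. The part of the libraries' content of RNAs without poly(A) tails was not tested further.

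Libraries at the same levels on day 9 share none with day 6. There 3916 genes passed, 20.8% of those tested. Of the 2196 genes higher on day 6, 1056 were called higher on day 9 as well (48.1%, against 9.35% of all genes) and 3 were called lower. Of the 2876 lower ones 1633 were called lower (56.8%, against 11.5% of all genes) and 5 were called higher. Genes were selected by their day 6 calls, which favours large values on that day. For MVK the day 9 libraries had 106, 63.7 and 83.3 at 12.5%, against 212, 296 and 380.3 at 100% (log2 change -1.79 ± 0.35 SE, adjusted p = 0.000658). For CLK1 they had 1319.8, 1351 and 1342 at 12.5%, against 585, 376 and 409 at 100% (log2 change 1.58 ± 0.20 SE, adjusted p = 6.62e-06). For ARRDC3 they had 899, 856 and 913 at 12.5%, against 273, 235 and 304 at 100% (log2 change 1.72 ± 0.12 SE, adjusted p = 1.46e-09). Sterol synthesis had 11 of 12 genes lower on day 9 too, the helicase 11 of 15, and heat shock 12 of 27 higher. Ribosomal proteins had 5 of 79 lower and 1 higher on day 9, and chromatin modifiers 9 of 44 higher and 10 lower.

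A test of the difference between the days called 12 genes (0.0638% of those tested, with 1887 at an unadjusted p under 0.05), 4 with a higher (0.0213%) and 8 with a lower (0.0426%) change on day 6. The count was 19 without replicate 3 at 12.5% on day 6 and 2 without replicate 1 at 100% on day 6 or replicate 2 at 100% on day 9, with the other single libraries between these values. TRIB3 had 6453, 5412 and 5909 on day 9 at 12.5%, against 8346, 6711 and 7328 at 100%, a log2 change of -0.33 where day 6 had -1.25. WNK4 had 116, 145 and 157 on day 9 at 12.5%, against 94.4, 95.4 and 96.9 at 100%. Its restricted libraries were again the higher ones, but the day 9 change of 0.53 did not pass. STK32B, a kinase gene, had 492, 502 and 529.7 at 12.5% on day 6, against 714, 654 and 654 at 100%, and 748, 807 and 794 at 12.5% on day 9, against 605, 599 and 692 at 100%. It was lower on day 6 and higher on day 9, with the day 6 call lost without the keratin-high libraries. CEBPB, which fell by 0.70 on day 6, did not pass on day 9 (adjusted p = 0.997), and RASSF2 and CNTN3 were the other genes called outside the rule for named genes.

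**Figure D4:**
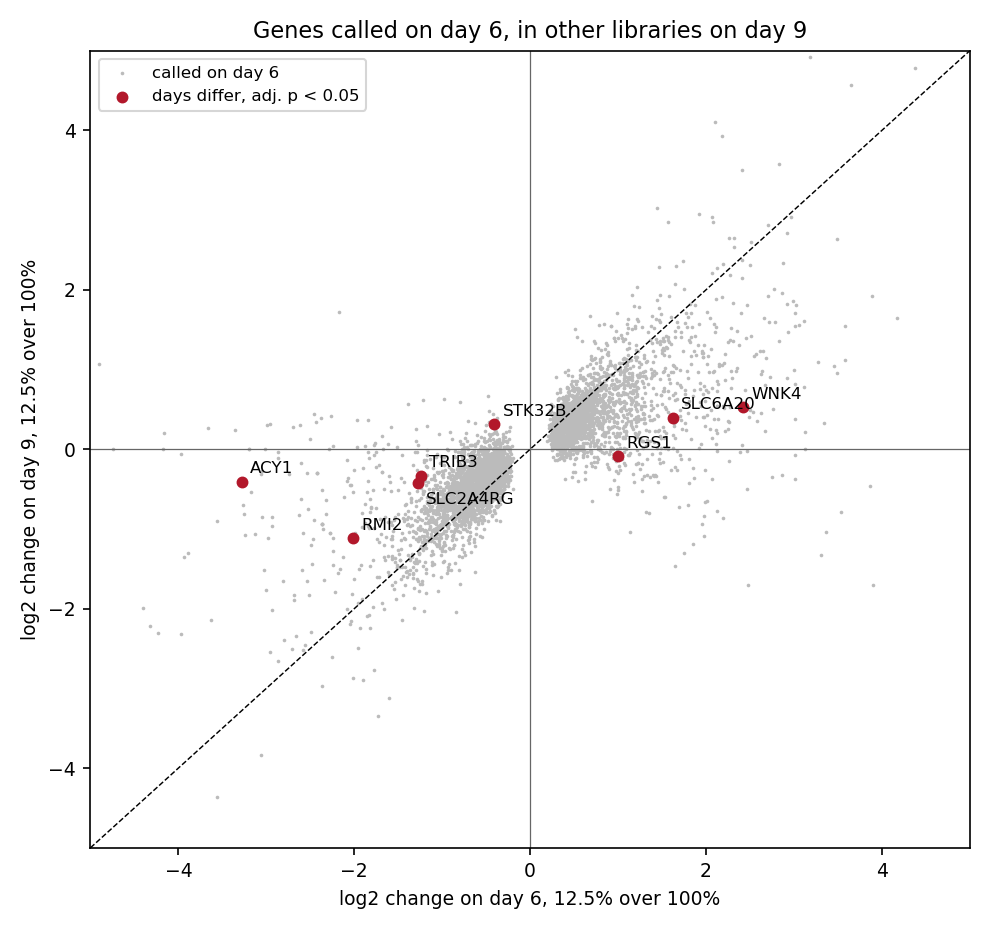
Log2 change at 12.5% over 100% histidine on day 9 against that on day 6, for genes called on day 6 (grey) and for 8 named genes whose changes differed between the days (red); the dashed line marks equal changes. Most points share their sign, STK32B lies above 0 on day 9 and below it on day 6, and 5 points lie outside the axes.

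Against 50% histidine, whose libraries differ from those at 100%, 4453 genes passed (23.7%), 1921 higher (10.2%) and 2532 lower (13.5%). Of the 3 libraries at 50% 2 were keratin-high, and 1339 genes passed without the keratin-high libraries. Against no histidine 2869 genes passed, with 1846 without replicate 2 at 12.5% and 1909 and 1750.0 without the second and the third library without histidine. The cells at 12.5% had less ADGRE2 than those without histidine (-0.71, adjusted p = 0.0322) and more WNK4 (1.35, adjusted p = 0.000523), and PACSIN3, lower than at 100%, was higher than without histidine (1.06, adjusted p = 0.00379). TRIB3 had 5392, 6815 and 7034 without histidine and 5339.7 and 4903 at 25%, so 12.5% was the lowest level, below none (-0.55, adjusted p = 0.00108) and not apart from 25% (adjusted p = 0.199). RGS1, a lymphocyte brake on G-protein signals, had 494, 467 and 407 without histidine, 799, 996 and 1217 at 12.5%, 2206 and 2310.4 at 25%, 455, 615 and 496 at 50% and 486, 481 and 521 at 100%. Its highest level was at 25%, with 12.5% at -1.19 relative to it (adjusted p = 1.94e-05), and 12.5% stood above none (1.12, adjusted p = 2.23e-06) and 100% (1.00, adjusted p = 8.35e-06). Against 25% histidine 3348 genes passed, with 1794 without replicate 1 at 12.5% and 1374 and 1633 without either library at 25%. Of these calls 39.8% were higher, and 51.8% with upper-quartile rescaling.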

How the data were processed

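The deposited values were the authors' normalized counts per gene (a signal, not raw counts), in one table of 31919 genes and 25 libraries. Per the submitters' processing notes, FastQC 0.11.9, kallisto 0.50.1 and DESeq2 1.44.0 were used with GRCh38. The annotation release and the strand setting were not given in the sources used here. Per the labels' protocols, total RNA went into strand-specific libraries. From these values log2(normalized count + 1) was computed, 18799 genes reached 10 in 2 or more libraries and stayed in, and limma 3.58.1 (R 4.3.3) was fitted to 9 group means with a mean-variance trend and 16 residual degrees of freedom. Figures and tables used Python 3.11.15 with pandas 2.3.3, numpy 2.4.6 and matplotlib 3.10.9. The fit was tested on simulated data. Day 9 and neighbouring levels came from the same fit. Keratin-high libraries were those whose KRT8, KRT18 and KRT19 values summed to over 100. Transcript lengths (the longest GENCODE transcript of a gene) were matched for 29220 genes; gene coordinates and promoters are from RefSeq, GRCh38.p14. Removing the length trend was added after seeing the data.

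Named genes were the 12 largest rises and 12 largest falls whose higher group averaged 200 or more, with a symbol and no overlap between groups, the 6 largest each way for each other comparison and up to 5 called members of each list, both from an average of 50 up, and a fixed set of nutrient, lipid, cell cycle and keratin genes. Other genes are said to be named after their values were seen, or are given as members of a list. The comparison and the lists were chosen with earlier results of these data known. Same-numbered libraries were not paired: their correlations of deviations lay between -0.02 and 0.00. Alternatives varied the pseudocount, filter, scaling, covariates, weights, fitted groups and libraries. Some genes are not reported here.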

Additional observations from a re-analysis of the deposited data

Results flagged for a closer look

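The change at 12.5% against 100% histidine differed between day 6 and day 9 for 12 genes, by a test of the difference itself. The difference, day 6 minus day 9, was positive for the kinase WNK4 (1.90), the amino acid carrier SLC6A20 (1.23) and RGS1 (1.08). It was negative for the aminoacylase ACY1 (-2.87), TRIB3 (-0.91), RMI2 (-0.90), SLC2A4RG (-0.86) and the kinase gene STK32B (-0.72). STK32B was lower on day 6 and higher on day 9. The keratin-high control libraries are all on day 6 among these groups, and without them 3 genes differed between the days, and 2 with the keratin level as a covariate.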

How the results depend on the processing

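The count of genes changed at 12.5% against 100% histidine, 5072, was 2464 without the keratin-high libraries, 3769 with 5.8S rRNA as a covariate and 6952 with library weights, and between 3732 and 4976 with one library left out. Against 50% the count of 4453 was 2645 with the compared groups alone, 8672 with library weights and 1339 without the keratin-high libraries (between 3278 and 4660.0 with one library left out). Against 25% the count of 3348 was 1460.0 with the compared groups alone and 5475 with weights (between 1374 and 3881). Against no histidine the count of 2869 was 1184 with the compared groups alone and 4967 with weights (between 1750.0 and 3309). On day 9 the count of 3916 lay between 2980.0 and 3495 with one of its day 9 libraries left out. The 12 genes differing between the days were 41 with the 5.8S covariate, 1 with the compared groups alone, 2 with the keratin covariate, 133 with weights, 3 without the mean-variance trend and 3 without the keratin-high libraries, and between 2 and 19 with one library left out. Each of these ranges leaves out only libraries of the compared groups. Without the no-histidine library with 2 day labels, 5167 genes passed against 100%. The causes were not tested. Among results for single named genes, 7219 kept the call or its absence, 485 lost the call and 42 gained one. None changed direction where the gene was called with either setting. Changes of sign in genes called with neither setting were not counted apart and lie among the 7219.

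With the replicate number as a block the count was 5011 against 100%, 4416 against 50% and 2609 against 25%. It was 2882 against no histidine, 3806 on day 9 and 8 for the difference between days. No label says that the numbers pair the samples, and whether they do was not settled. The deposited normalization limits all levels, and no read depth is known.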

Other observations

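Surface molecules of lymphocytes were more often higher than lower, with 8 of 36 adhesion and surface genes higher and 4 lower (4 and 2 without the keratin-high libraries, 13 higher with upper-quartile rescaling). LY9, a receptor of the SLAM family, had 131, 107 and 159.8 normalized counts at 12.5% histidine, against 58.8, 80.2 and 80.2 at 100% (log2 change 0.85 ± 0.20 SE, adjusted p = 0.00269 by limma). ITGA6, a laminin receptor chain, had 717, 819 and 820.1 at 12.5%, against 451, 436 and 447 at 100% (log2 change 0.82 ± 0.10 SE, adjusted p = 2.44e-06 by limma). In both genes the groups did not overlap, as for 41.6% of all genes. Calls made up 33.3% of the adhesion and surface genes, where 27.0% of all genes passed. Immune GTPases of the GIMAP family were lower in 3 of 6 genes (0 without the keratin-high libraries), and against no histidine all 6 were higher.

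Genes against oxidative stress were more often lower than higher, with 9 of 24 lower and 2 higher (5 and 1 without the keratin-high libraries, and 5 lower without replicate 1 at 12.5%). The mitochondrial peroxidase PRDX3 had 1099.6, 1281 and 1478 at 12.5%, against 2516, 2362 and 2641 at 100% (log2 change -0.97 ± 0.12 SE, adjusted p = 4.02e-06 by limma). The quinone reductase NQO1 fell by 1.03 on the log2 scale. Of 36 lysosome and autophagy genes 3 rose and 6 fell, with 1 higher and 2 lower without the keratin-high libraries, 2 lower without replicate 1 at 12.5%, and their median changed sign with both rescalings. With all libraries the calls made up 25.0% of this list, where 27.0% of all genes passed. ULK1, a kinase that starts autophagy, had 2239, 2284 and 2048 at 12.5%, against 1434, 1689.8 and 1593 at 100% (log2 change 0.48 ± 0.10 SE, adjusted p = 0.000905 by limma). Of 26 hosts of small nucleolar RNAs 4 rose and 4 fell (2 and 0 without the keratin-high libraries, and 2 lower without replicate 1 at 12.5% or replicate 1 or 3 at 100%). Among these hosts 30.8% were called with all libraries, against 27.0% of all genes. The host SNHG3 had 603, 455 and 497 at 12.5%, against 347, 292 and 235 at 100% (log2 change 0.84 ± 0.14 SE, adjusted p = 0.000122 by limma).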
